A study of Homo sapiens with 45 samples.

Results

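PTBP1, PTBP2 and PTBP3 are the 3 members of the polypyrimidine tract binding protein family, and they are 3 of the 15698 genes in the expression table of this series. The family was chosen by a measured value: PTBP2 stood far above every other library in 3 libraries, KF_48, KF_32 and KF_31, which are also the 3 libraries lowest in TOX4, one of the genes the study targeted with siRNA. The levels of the members are therefore given as a description, with no test. The last library inside that choice, KF_31, had a PTBP2 level of 7.91 on the log2 scale, and the first one outside it, KF_12, had 4.10.

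RNA was sequenced from HCT116-VR, a line derived from the HCT116 colorectal carcinoma line that was grown in vorinostat, a histone deacetylase inhibitor, until it was resistant. The cells were transfected for 48 h with lipid only (mock) or with a pool of siRNAs at 40 nM against BEGAIN, CCNK, CDK10, DPPA5, EIF3L, GLI1, JAK2, NFYA, POLR2D, PSMD13, RGS18, SAP130, TGM5 or TOX4, and each of the 15 conditions had 3 libraries. The labels name 1 cell line, so every group shares the resistant background. The columns of the table carry library names only (KF_ and a number), which no sample label contains. A sample list in the study's supplement pairs each library name with a sample title and replicate number, but it goes against the levels of the targeted genes. It places KF_48, KF_32 and KF_31 under 3 different conditions, the siRNAs against SAP130, TOX4 and TGM5 in that order. The list was therefore not followed, and no library is given a condition here. In file order the 45 columns fall into 15 sets of 3 adjacent columns, and a tree of all genes returned the same 15 sets as clades of 3 libraries, while 0 of the 15 sets stand under 1 condition in the list. A set is named by its libraries and, where 1 set held the 3 lowest libraries of a targeted gene, by that gene. This was so for 10 of the 11 targeted genes that the table lists, and BEGAIN was the exception. The 5 sets without such a gene are KF_1, KF_38 and KF_13, then KF_33, KF_12 and KF_42, then KF_5, KF_40 and KF_23, then KF_46, KF_36 and KF_4, and KF_41, KF_43 and KF_10. Libraries of 1 set are not shown by their labels to be replicates of 1 condition.

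PTB proteins bind pyrimidine-rich stretches of pre-mRNA through RNA recognition motifs and mostly keep the exons beside them from being spliced in. PTBP1 is found in most cell types, PTBP2 is best known from developing neurons and testis, and PTBP3 (formerly ROD1) is known from blood cells. PTBP1 is known to cause skipping of a short exon of PTBP2, which shifts the reading frame and sends the transcript to nonsense-mediated decay, and to act on the matching exon of its own transcript in the same way. The table counts reads per gene, so it holds levels of these transcripts and not the inclusion of any exon.

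The 34-base exons of PTBP1 and PTBP2 are shown because they are the exons PTBP1 is known to act on, and the 34-base exon of PTBP3 most like them is set beside them for comparison. Each line below gives, on GRCh37 and 5′ to 3′ on the transcript strand, 100 bases of the intron before the exon in lower case, the exon in capitals and 30 bases of the intron after it. PTBP2 lies on chromosome 1 (97187221 to 97289294, + strand), PTBP1 on chromosome 19 (797075 to 812327, + strand) and PTBP3 on chromosome 9 (114979996 to 115095944, - strand).
PTBP2, chr1:97271875-97272038: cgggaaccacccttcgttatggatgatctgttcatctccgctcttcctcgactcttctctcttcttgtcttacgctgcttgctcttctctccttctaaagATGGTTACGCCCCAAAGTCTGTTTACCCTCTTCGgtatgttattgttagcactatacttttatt
PTBP1, chr19:807769-807932: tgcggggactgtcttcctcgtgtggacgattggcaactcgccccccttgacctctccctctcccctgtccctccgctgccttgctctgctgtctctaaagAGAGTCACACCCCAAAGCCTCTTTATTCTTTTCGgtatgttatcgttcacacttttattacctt
PTBP3, chr9:114993630-114993793: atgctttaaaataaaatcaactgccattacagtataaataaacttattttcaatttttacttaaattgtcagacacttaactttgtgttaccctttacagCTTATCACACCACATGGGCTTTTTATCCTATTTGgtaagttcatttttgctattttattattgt

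The exons of PTBP1 and PTBP2 have the same base at 25 of the 34 positions (73.5%), those of PTBP1 and PTBP3 at 22 (64.7%) and those of PTBP2 and PTBP3 at 21 (61.8%). PTBP3 has a second 34-base exon, at 115092721 to 115092754 on chromosome 9, which matches the PTBP1 exon at 6 positions and the PTBP2 exon at 5 and is therefore not printed. The 100 bases before the PTBP2 exon hold the letters TCTT 6 times, counted with overlaps and on the transcript strand only, a number reached in 0.15% of 113277 windows of the same length before annotated exons. They hold CTCTCT once (8.4% of windows hold it), and 73 of the 100 bases are pyrimidines, against a median of 55. The PTBP1 window has 1 TCTT (61.7% of windows have at least as many), no CTCTCT and 69 pyrimidines (3.8%). The window before the PTBP3 exon shown has neither motif and 56 pyrimidines (48%). The window before the second PTBP3 exon has 3 TCTT (9.45% of windows have as many), no CTCTCT and 76 pyrimidines (0.649%). In GENCODE release 44 the PTBP2 exon is in 12 transcripts and skipped by 6, of which 3 are annotated as targets of nonsense-mediated decay and 0 as coding. For PTBP1 it is in 9 transcripts and skipped by 5, of which 2 are annotated as such targets and 3 as coding, and for PTBP3 it is in 5 and skipped by 0. The second PTBP3 exon is in 3 transcripts and skipped by 5, of which 4 are annotated as coding and 0 as targets of nonsense-mediated decay. These letters and annotations describe the genes and are not a measurement of splicing in the libraries.

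The libraries held 7569592 to 21149597 reads on the listed genes, with a median of 11551126, and the 3 libraries lowest in TOX4 held 11048465 to 14036243. All 8 epithelial markers are listed, and the level of their sum was 11.57 to 11.66 (log2) in those 3 libraries against 11.34 to 12.23 in the other 42. None of the 5 leukocyte markers and 1 of the 6 fibroblast markers is listed. TOX4, a high mobility group box protein, had 15 reads in KF_48, 19 in KF_32 and 24 in KF_31, which are levels of 0.21, 0.78 and 0.82 on the log2 scale, and 567 to 1632 reads in the other libraries (log2 of 5.82 to 6.97).

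Levels are in log2 of reads per 1e6 reads (CPM) as the authors scaled each library, and are not reads over the plain totals above. PTBP2 had a level of 8.02 in KF_48, 7.95 in KF_32 and 7.91 in KF_31, from 3495, 2808 and 3353 reads. In the other 42 libraries the lowest level was 1.75, the median 3.0 and the highest 4.10, from 35 to 204 reads. The 3 libraries were alike within 0.11 and lay 3.81 above the next library. The median was 4.95 higher on the log2 scale in the 3 libraries than in the other 42, a ratio of 31, and this was the highest difference of all 15698 genes. The choice rests on these values, so they carry no evidence of their own, and in RNA of whole cultures a higher level per cell and a larger share of cells with the transcript cannot be told apart. In all, 100 genes (0.637%) had all 3 libraries above the other 42, and PTBP2 had the widest gap among them. The genes next in the width of the gap were CAP2, which encodes an actin-binding protein (gap of 1.21 and difference of 2.50), GPC2, a cell-surface heparan sulphate proteoglycan of the nervous system (1.03 and 2.68, with 47 to 72 reads), PPP1R12B, a myosin phosphatase subunit (0.85 and 1.46), AJM1 (0.81 and 2.05) and FBXO41 (0.73 and 1.46).

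**Figure D1:**
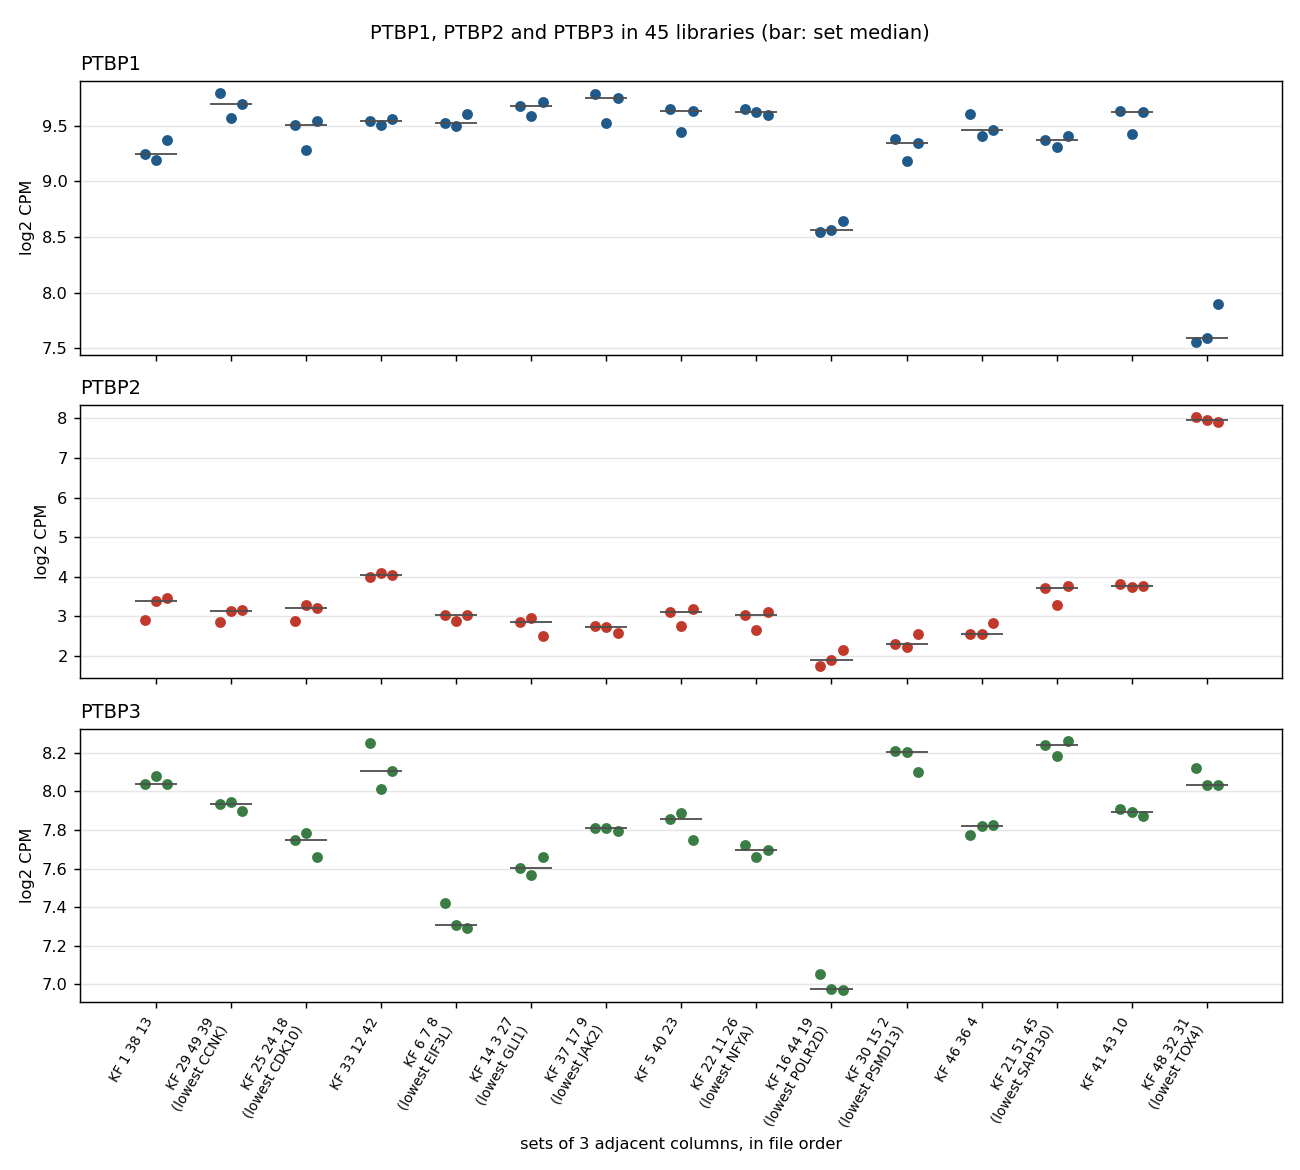
Levels of PTBP1, PTBP2 and PTBP3 (log2 CPM, vertical axes with a different range for each gene) in the 45 libraries, arranged in sets of 3 adjacent columns with a bar at each set's median. PTBP2 lies at 7.91 to 8.02 in KF_48, KF_32 and KF_31 and at 4.10 or lower elsewhere, PTBP1 is lowest in the same 3 libraries, and PTBP3 is lowest in KF_16, KF_44 and KF_19.

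Outside those 3 libraries PTBP2 was a weakly expressed gene whose sets still differed. The highest set was KF_33, KF_12 and KF_42, with levels of 4.01, 4.10 and 4.05 from 170, 177 and 191 reads. It lay 0.18 above the next set, KF_41, KF_43 and KF_10, which had 3.82, 3.74 and 3.77. Both are sets that hold the 3 lowest libraries of no targeted gene, and 3 targeted genes (DPPA5, RGS18 and TGM5) are not listed in the table. The next medians were 3.73 in the set lowest in SAP130, 3.38 in KF_1, KF_38 and KF_13, 3.20 in the set lowest in CDK10, 3.13 in that lowest in CCNK, and 3.10 in KF_5, KF_40 and KF_23. Below these came the sets lowest in EIF3L (3.04), NFYA (3.03), GLI1 (2.86) and JAK2 (2.74), then KF_46, KF_36 and KF_4 (2.57) and the set lowest in PSMD13 (2.31). Neighbours in this order overlapped from the third set to the 14th, and the range within a set had a median of 0.33 over the 15 sets. The lowest set was that lowest in POLR2D, a subunit of RNA polymerase II, with 1.75 in KF_16, 1.90 in KF_44 and 2.14 in KF_19. These come from 45, 35 and 57 reads, and the count of 35 has an exact 95% Poisson interval of 24.4 to 48.7, which covers counting error only. All 3 lay below the next set by 0.08.

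PTBP1, the family member found in most tissues, was lowest in the 3 libraries with the highest PTBP2. Its levels there were 7.56 in KF_48, 7.59 in KF_32 and 7.89 in KF_31, from 2524, 2185 and 3311 reads. In the other 42 libraries the lowest level was 8.55, the median 9.52 and the highest 9.79, from 3592 to 17467 reads, so the groups did not overlap and lay 0.65 apart. The difference of medians was -1.93 on the log2 scale, which makes the median of the other libraries 3.82 times that of the 3. KF_31 had the highest PTBP1 and the lowest PTBP2 of the 3, but their PTBP2 levels lay within 0.11 of each other. In all, 98 genes (0.624%) had all 3 libraries below the other 42, and PTBP1 had the 7th widest gap among them, after TOX4, its processed pseudogene TOX4P1, SLC25A32, PMP22, DNM2 and MAN2A1. PTBP1 was not named in the choice of the libraries, but it was put in the list with the values known.

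The second lowest set for PTBP1 was again that lowest in POLR2D, with 8.55, 8.56 and 8.65, and it lay 0.54 below the 13th set. The other 13 sets had medians from 9.24 (KF_1, KF_38 and KF_13) to 9.75 (lowest in JAK2), and each of them overlapped with its neighbour. In descending order they were the sets lowest in JAK2 (9.75), CCNK (9.69) and GLI1 (9.68), KF_5, KF_40 and KF_23 (9.63), the set lowest in NFYA (9.62), KF_41, KF_43 and KF_10 (9.62), KF_33, KF_12 and KF_42 (9.55), the sets lowest in EIF3L (9.52) and CDK10 (9.51), KF_46, KF_36 and KF_4 (9.46), the sets lowest in SAP130 (9.37) and PSMD13 (9.35), and KF_1, KF_38 and KF_13. The set with the second highest PTBP2, KF_33, KF_12 and KF_42, thus stood 7th of 15 for PTBP1.

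The processed pseudogene PTBP1P (chromosome 14, 65745985 to 65747884 on the + strand of GRCh37) is counted as a gene of its own and followed PTBP1. It had 145, 118 and 155 reads in KF_48, KF_32 and KF_31 and levels of 3.44, 3.38 and 3.48, against 3.94 to 5.46 in the other 42. Reads of the pseudogene and of PTBP1 can be hard to tell apart, so its level may not be its own transcription, and how reads were divided between the copies was not tested. In the same 3 libraries PTBP1 had 2524, 2185 and 3311 reads. The counts of the pseudogene do not show how many reads of PTBP1 were lost or shared.

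PTBP3 showed no separation of this kind. It had 8.12 in KF_48, 8.03 in KF_32 and 8.03 in KF_31, from 3733, 2973 and 3643 reads, against a lowest level of 6.97, a median of 7.82 and a highest of 8.26 in the other 42. The difference of medians was 0.21 and the groups overlapped. The 3 libraries were 5th of the 15 sets. Above them stood the sets lowest in SAP130 (median 8.24) and PSMD13 (8.21), KF_33, KF_12 and KF_42 (8.11) and KF_1, KF_38 and KF_13 (8.04), all overlapping with the next in order. Below them, by 0.09, stood the set lowest in CCNK (7.94), followed by KF_41, KF_43 and KF_10 (7.89), KF_5, KF_40 and KF_23 (7.86), KF_46, KF_36 and KF_4 (7.82) and the sets lowest in JAK2 (7.81), CDK10 (7.75), NFYA (7.70), GLI1 (7.60) and EIF3L (7.31). In the set lowest in EIF3L, a subunit of a translation initiation factor, the 3 levels were 7.42, 7.31 and 7.29, which is 0.14 below the set lowest in GLI1. The set lowest in POLR2D was the lowest of all, with 7.06 in KF_16, 6.98 in KF_44 and 6.97 in KF_19, another 0.24 below. Of the 14 pairs of neighbours in this order 5 did not overlap, 2 of them by 0.013 or less. PTBP3 was the member with the tightest sets, with a median range of 0.08 within a set against 0.19 for PTBP1 and 0.33 for PTBP2.

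Both PTBP2 and PTBP3 thus had their lowest 3 libraries in the set lowest in POLR2D, and PTBP1 its lowest 3 outside the set lowest in TOX4. In that set 1357 genes (8.64%) lay below all other libraries, so the place of PTBP2 and PTBP3 there is shared with many genes and is read against that share. Over 45 libraries the s.d. was 1.36 for PTBP2, 0.53 for PTBP1 and 0.32 for PTBP3 on the log2 scale, which ranks them 204th, 4891st and 10670th of 15698 genes. Without the 3 libraries lowest in TOX4 the s.d. of PTBP2 was 0.56, that of PTBP1 0.29 and that of PTBP3 0.33.

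Over the 45 libraries, which share sets and scaling and are not independent points, Pearson's r between PTBP1 and PTBP2 was -0.69 and Spearman's rho was -0.09. Over the 42 libraries outside the set lowest in TOX4, r was 0.44, and over the 39 that also leave out the set lowest in POLR2D it was -0.04. The negative r over all libraries therefore rested on 1 set, and the positive one on another. Deviations of the libraries from the median of their own set gave 0.08. For PTBP1 and PTBP3, r was 0.03 over the 45 libraries and -0.47 over the 39, and for PTBP2 and PTBP3 it was 0.40 and 0.30.

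**Figure D2:**
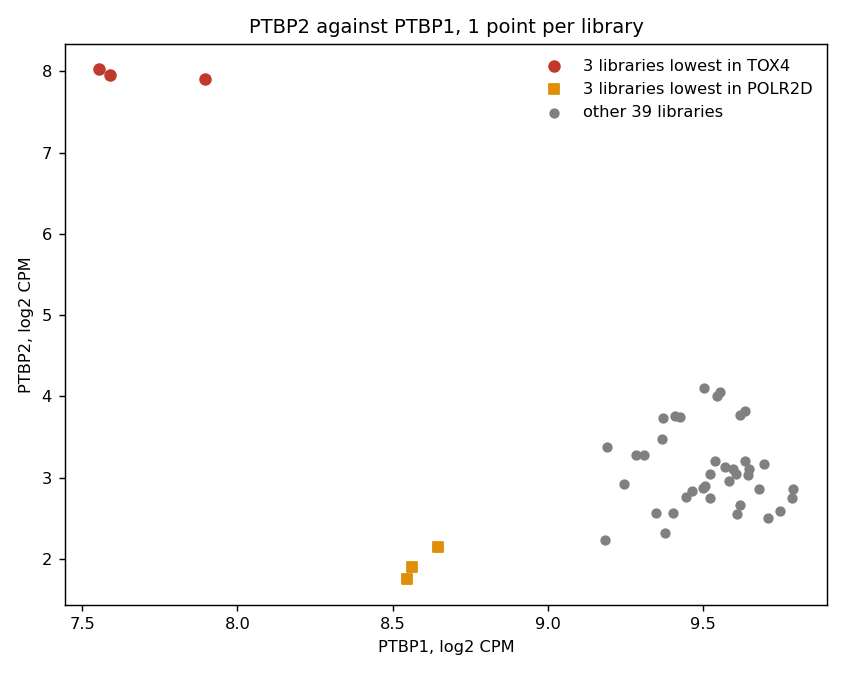
Level of PTBP2 against that of PTBP1 (both log2 CPM), 1 point for each of the 45 libraries. The 3 libraries lowest in TOX4 lie alone at the upper left, with PTBP1 at 7.56 to 7.89, the 3 lowest in POLR2D lie at the bottom with PTBP1 at 8.55 to 8.65, and the other 39 form 1 cloud with r of -0.04.

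To compare the members with each other, each level was divided by gene length. Per kb of merged exons (7521 bases for PTBP1, 20122 for PTBP2 and 8236 for PTBP3), PTBP1 had 25 to 31.6 CPM per kb in the 3 libraries lowest in TOX4 and 49.7 to 118 in the others. On the same scale PTBP2 had 12.0 to 12.9 against 0.167 to 0.853, and PTBP3 had 31.8 to 33.8 against 15.2 to 37.2. PTBP2 then made up 17.6% of the family's summed level at the median of the 3 libraries and 0.318% in the other 42, PTBP1 36.7% and 77.7%, and PTBP3 45.6% and 22%. The merged exons of PTBP2 are much longer than its canonical transcript of 3321 bases. Per kb of coding sequence of the canonical transcript (1671, 1593 and 1572 bases), a scale chosen after the data were seen, PTBP2 made up 35.5% in the 3 libraries and 0.857% in the others, PTBP1 26.4% and 74.5%, and PTBP3 38.1% and 24.5%. PTBP2 exceeded PTBP1 in 3 libraries of 45 by coding length, in 2 by the length of the canonical transcript and in 0 by merged exons, so their order within those 3 libraries depends on the length used. PTBP1 was the highest member in each of the other 42 libraries on all 3 scales.

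The summed level of the family in the 3 libraries lowest in TOX4 lay below 13 of the other 14 sets by coding length and by merged exons. By coding length it was 437 to 460 CPM per kb there and 309 to 690 in the other 42. Of the 15 sets, the set lowest in POLR2D was lower, with 309 to 322, and the next set above was KF_1, KF_38 and KF_13, with 528 to 570. By merged exons the sum was 69.7 to 75.4, against 65.7 to 148 in the others.

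**Figure D3:**
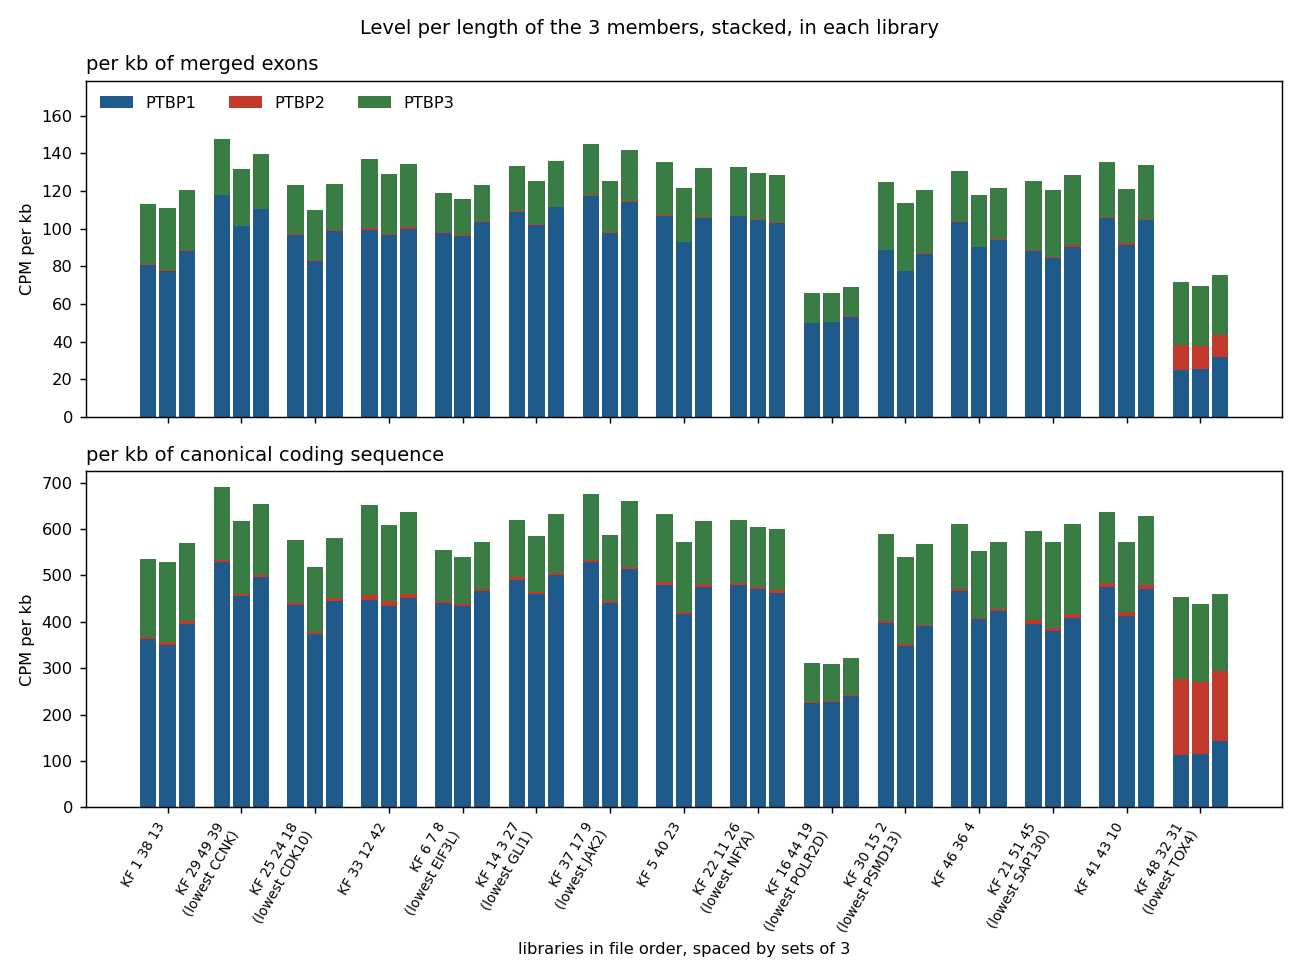
Levels per length of PTBP1, PTBP2 and PTBP3 (CPM per kb, stacked bars from 0) in each of the 45 libraries, by merged exons (upper panel) and by the coding sequence of the canonical transcript (lower panel). PTBP2 is visible as a large part of the bar in 3 libraries, at 35.5% of the sum by coding length at their median, and takes 1.77% or less by that length in the other 42.

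Across all genes the difference between the 3 libraries and the other 42 was centred at 0.01 and lay between -0.60 and 0.56 for the middle 90% of genes. A difference of at least 1 in size together with no overlap was found for 25 genes above and 34 below. PTBP2 and PTBP1 were among these and PTBP3 was not.

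**Figure D4:**
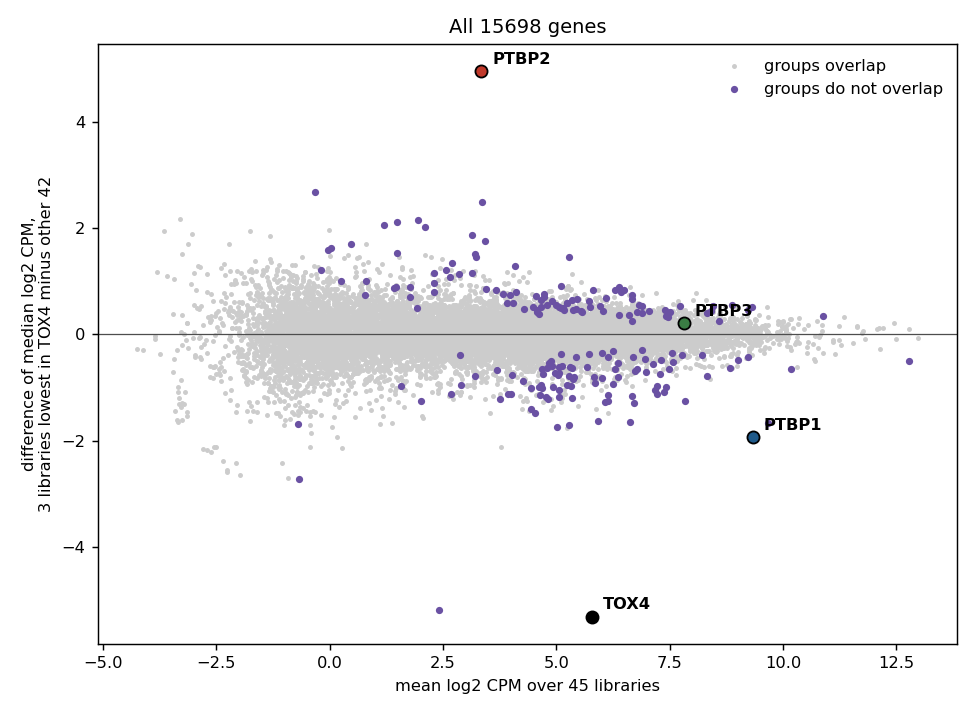
Difference of the median log2 CPM between the 3 libraries lowest in TOX4 and the other 42 (vertical axis) against the mean log2 CPM over 45 libraries (horizontal axis) for the 15698 genes, with genes whose groups do not overlap in purple. PTBP2 lies highest of all genes at 4.95, TOX4 at -5.31, PTBP1 at -1.93 and PTBP3 within the mass of genes at 0.21.

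Other genes of RNA processing were read from lists. Of 12 partners and cofactors of PTB proteins, 1 lay above all other libraries and 0 below, and the median difference of the list was 0.12. It was MATR3, which encodes matrin 3, a nuclear RNA-binding protein that interacts with PTB, at 9.35 to 9.48 against 7.92 to 9.15. Its difference was 0.54. RAVER1 and RAVER2, which encode corepressors that bind PTB, overlapped with differences of -0.12 each. Of 22 hnRNP genes, the wider family of nuclear RNA-binding proteins, 1 lay above and 0 below, with a list median of 0.13. It was HNRNPA2B1, at 11.23 to 11.28 against 10.52 to 11.20, with a difference of 0.35. Of the SR protein genes, which encode splicing activators, 12 of 14 are listed, 0 lay above or below, and the median was 0.18. Of 10 factors of nonsense-mediated decay, the pathway that removes the skipped form of PTBP2, 1 lay above and 0 below, with a median of 0.13. SMG9, a subunit of the complex around the SMG1 kinase, was at 5.67 to 5.79 against 3.63 to 5.63, while UPF1, the central helicase, overlapped with a difference of 0.10. Over all genes 0.637% lay above, 0.624% lay below and the median difference was 0.01.

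Genes that hold an exon known to be regulated by PTB were read for their total level. All 14 are listed, 0 lay above and 1 below, against 0.637% and 0.624% of all genes, and the median difference was -0.11 against 0.01. TPM1, which encodes a tropomyosin of the actin cytoskeleton, was at 3.44 to 3.84 against 4.06 to 5.62, a difference of -1.17. Others overlapped, such as SRC (difference of 0.10), PKM (-0.11), ACTN1 (-0.11) and FAS (0.10). Among regulators of splicing restricted to neurons or other tissues, 12 of 23 are listed, 0 lay above or below, and the median was 0.08. RBFOX1, RBFOX3, NOVA1, SRRM4 and 7 others are not listed, and the epithelial regulators ESRP1 and ESRP2 overlapped with differences of 0.13 and -0.68. Of 10 neuronal markers 5 are listed and 0 lay above or below, with a median of 0.56, while NEFL, NEFM, STMN2, GAP43 and DCX are not listed. Among the 5 listed, 4 had a positive difference, such as MAP2 (1.20) and SNAP25 (1.13, from 15 to 18 reads in the 3 libraries). SYT1, the marker with the highest median in both groups, had a difference of -0.33 and weighs most in the sum. The summed level of the 5 was 5.82 to 6.0 in the 3 libraries and 4.58 to 6.47 in the other 42. Of 8 epithelial markers 0 lay above or below, with a median of -0.12.

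**Figure D5:**
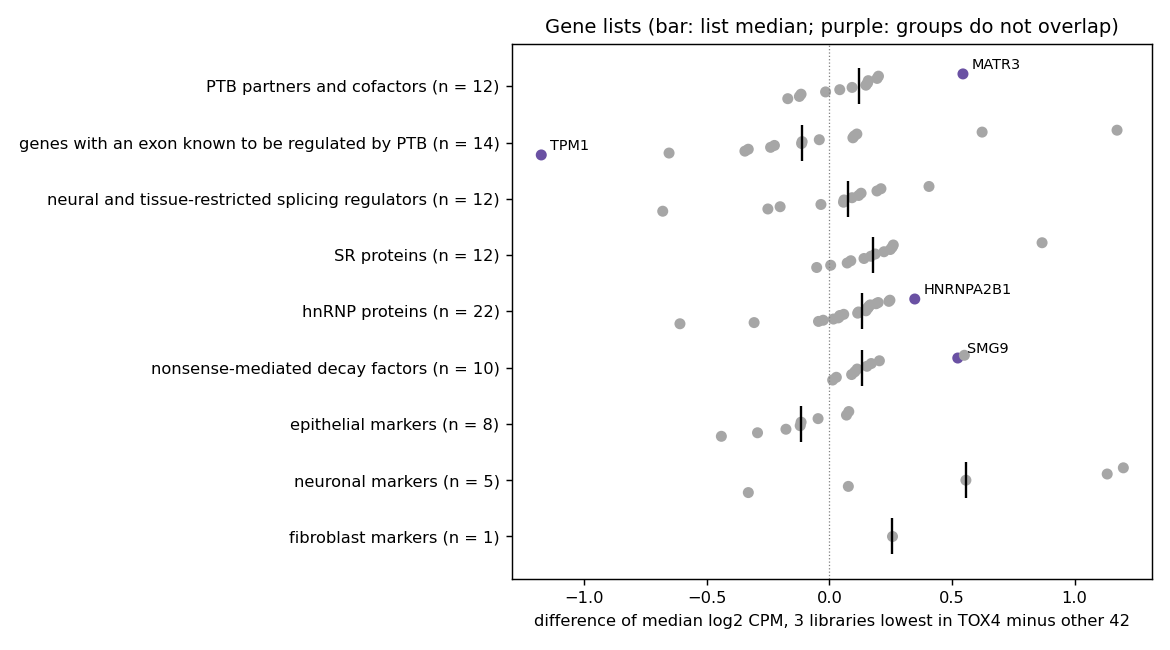
Difference of the median log2 CPM between the 3 libraries lowest in TOX4 and the other 42 (horizontal axis) for each listed gene of 9 gene lists, 1 point per gene, with a bar at the median of each list. MATR3, HNRNPA2B1 and SMG9 lie above all other libraries and TPM1 below, and the other genes overlap.

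The genes whose levels were most like PTBP1 over the 45 libraries were PTBP1P (r = 0.98), PMP22 (0.83), EEF1AKMT2 (0.82), C2CD5 (0.80) and SLC25A32 (0.79). With the 3 libraries lowest in TOX4 left out they were PTBP1P (0.96), HNRNPDL (0.93), HNRNPLP2 (0.90), HNRNPM (0.90) and HNRNPL (0.90), of which HNRNPDL, HNRNPM and HNRNPL are hnRNP genes. HNRNPLP2 is by its name a pseudogene of HNRNPL, and whether it shares reads with HNRNPL was not tested. The genes most like PTBP2 were CLCN6 (0.70), ANK2 (0.69), VAMP2 (0.68), MATR3 (0.66) and PPP1R12B (0.66) over 45 libraries. Over the other 42 they were MTCL1 (0.81), MAP6D1 (0.79), MIDEAS (0.79), HPRT1 (0.78) and GNAQ (0.77). The lists for PTBP1 and PTBP2 thus differed with and without those 3 libraries, with 1 gene shared for PTBP1 and 0 for PTBP2. For PTBP3 they were STRN (0.88), HSPA9 (0.85), NUS1P1 (0.85), RASGEF1A (0.84) and TAF5 (0.84), and 4 of these 5 were also among the first 5 without the 3 libraries. These are correlations across libraries that share sets, given as a description with genes of a mean log2 level of at least 0. In the 42 libraries the set lowest in POLR2D was the lowest for each member. Leaving it out as well gave r of 0.89 between PTBP1 and PTBP1P over 39 libraries. For the other genes named here, how far r rests on that set was not tested.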

How the data were processed

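RNA was poly-A selected and sequenced from a single end. The authors mapped the reads with TopHat (1.4.1 in the submitters' processing notes, which also name CASAVA 1.8.2) on GRCh37. HTSeq-count gave reads per Ensembl 67 gene, and EdgeR with Limma-Voom scaled them. The values deposited are log2 CPM after this scaling, with 0.5 reads added to each count. Whole reads were recovered with a library's lowest value set to 0 reads, and 100% of values lay within 0.001 of a whole number. All 45 columns were used. The column names match no label, and the supplement's sample list, which pairs them with samples, goes against the levels of the targeted genes and was not followed. No significance test was therefore run, and libraries were compared by their levels, medians, ranges and overlap. Depth limits the low values, where counting error is large. The members, the gene lists and the comparisons were chosen with earlier results of these data known. Named genes are the members, TOX4, non-overlapping genes of each list (up to 4 in each direction by difference), the 5 genes next to PTBP2 in gap, and the 5 genes most like each member by r. Other genes are examples or set the place of a member in an order and were chosen after their values were seen. Symbols and exons come from GENCODE 44 (GRCh37), which is not the annotation the reads were counted with. Python 3.11.15, numpy 2.4.6, pandas 2.3.3, scipy 1.17.1 and matplotlib 3.10.9 were used.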

Additional observations from a re-analysis of the deposited data

How the results depend on the processing

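The differences of PTBP1, PTBP2 and PTBP3 kept their direction and moved by less than the s.d. of the 3 libraries under median-centred libraries, CPM over the plain total, 2 reads added in place of 0.5, and means in place of medians. Leaving out each of the 3 libraries in turn gave 4.94 to 4.99 for PTBP2, -1.95 to -1.78 for PTBP1 and 0.21 to 0.25 for PTBP3. Counts of genes without overlap were 131 to 170 above and 115 to 134 below when a library was left out, with 170 above without KF_32. Leaving a library out makes the rule looser by construction, so these counts could not fall below those with all 3 libraries. They were 25 above and 34 below when all 3 were kept and a difference of at least 1 was also required, which is a stricter rule by construction. With Spearman's rho in place of Pearson's r, 1 of the 5 genes most like PTBP1 was among the first 5, 0 for PTBP2 and 2 for PTBP3, and the cause was not tested. The share of the family in the 3 libraries changed with the length used, as the lengths of the members differ. It was 43.6% for PTBP2 and 21.3% for PTBP3 by the canonical transcript, and 35.5%, 38.1% and 26.4% for PTBP2, PTBP3 and PTBP1 by its coding part, against 17.6%, 45.6% and 36.7% by merged exons. No paired analysis was possible because the only source of replicate numbers for the columns is the sample list that goes against the targeted genes, so it was not followed, and no test was run.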
